A study of Mus musculus with 6 samples.

Results

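The genes described here are the cyclins, cyclin-dependent kinases (CDKs) and CDK inhibitors that govern the G1 phase of the cell cycle, with the retinoblastoma gene on which they act. They are Ccnd2, Ccnd3, Ccne1, Ccne2, Cdk2, Cdk4, Cdk6, Cdkn1b, Cdkn2c and Rb1. Rows were taken by gene symbol, using the row with the most counts where a symbol is repeated, which gave 10 genes of the 54532 in the table. All 10 passed the filter on low counts that left 15685 genes for testing. RNA sequencing was done on mouse CD4 T cells (C57BL/6) from spleen and lymph nodes. The knockout libraries (n = 3, replicates 1, 4 and 5) carry the genotype label iCD4-PRMT5delta/delta, with deleted alleles of Prmt5, the main enzyme of symmetric arginine dimethylation. The control libraries (n = 3, replicates 1, 2 and 4) carry the label iCD4-PRMT5fl/fl, with floxed alleles. The sources used here give neither what drives the deletion nor the age of the mice. Both genotypes were stimulated for 48 h on coated antibodies to CD3 and CD28 with no cytokine added, and the unstimulated libraries enter only through fold changes that the authors computed. The comparison asks whether transcripts of the G1 machinery differ between T cells with deleted and with intact floxed Prmt5 alleles.

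D-type cyclins pair with CDK4 and CDK6 and start the phosphorylation of the retinoblastoma protein, which in its unphosphorylated form holds E2F transcription factors in check. E-type cyclins pair with CDK2 and complete this step at the entry to S phase. The protein of Cdkn2c, an INK4 inhibitor, binds CDK4 and CDK6, and the protein of Cdkn1b inhibits mainly cyclin E with CDK2. In T cells, stimulation through the antigen receptor and CD28 is known to induce D-type cyclins and to lower the Cdkn1b protein, which moves resting cells out of quiescence.

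Gene counts summed to between 29623513 and 39832588 per library, and values are given as CPM (counts scaled to a common library total) after TMM scaling. A tag in the column names, which the labels do not explain, splits the libraries into batch A (knockout 1, control 1 and control 2) and batch B (knockout 4, knockout 5 and control 4). Prmt5 itself was at 41.1, 34.2 and 36.7 CPM in knockouts 1, 4 and 5, against 134, 133 and 98.2 CPM in controls 1, 2 and 4. Prmt5 transcript thus remained in the knockouts, and its log2 fold change was -1.70 on genotype alone (edgeR adjusted p = 0.109, not past the threshold) and -1.58 with the batch term (edgeR adjusted p = 0.00312). All 7 markers of CD4 T cells were detected, with a summed level of 1240.1 to 1639 CPM in knockouts and 1335 to 1475 CPM in controls. The summed level of 7 B cell markers was 19.4, 4.86 and 21.2 CPM in knockouts 1, 4 and 5, against 3.99 to 5.56 CPM in controls. Markers of macrophages and monocytes summed to 6.28 to 22.4 CPM in knockouts and 3.91 to 7.41 CPM in controls, and those of dendritic cells to 3.76 to 10.3 and 3.18 to 4.87 CPM. NK cell markers summed to 17.0 to 67.7 CPM in knockouts and 17.4 to 59.9 CPM in controls, most of it Eomes, and CD8 markers to 9.002 to 19.6 and 7.08 to 15.4 CPM. Neutrophil markers summed to at most 0.856 CPM and erythroid markers to at most 0.349 CPM in a library, with the globin genes Hba-a1 and Hbb-bs at 0. The stromal and endothelial list summed to 59.9 to 77.1 CPM in knockouts and 58.2 to 80.6 CPM in controls, nearly all of it Pecam1. Knockouts 1 and 5 stand apart in B cell markers, and their part in the results was not tested beyond leaving out both libraries where that is given.

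Of the 10 genes, 7 have a promoter in the RefSeq table for GRCm38.p6, with 9 start sites between them. Knockout levels lay below every control for Cdkn2c and Cdk4, and narrowly so for Cdk2, which is not printed. The stretches just before the starts of Cdkn2c, Cdk4 and Cdkn1b are printed. The first 2 were chosen for that separation and the third as an inhibitor that differs between the batches. Each is 5′ to 3′ on the strand of the gene, without bases that GENCODE M21 counts as exon. Capitals mark CACGTG (the E-box bound by MYC and related factors) and GGGCGG on either strand (the GC box). The stretches cover chr4:109665373-109665609 on the minus strand for Cdkn2c (before the downstream of its 2 starts), chr10:127063285-127063533 on the plus strand for Cdk4, and chr6:134920151-134920400 on the plus strand for Cdkn1b.
Cdkn2c: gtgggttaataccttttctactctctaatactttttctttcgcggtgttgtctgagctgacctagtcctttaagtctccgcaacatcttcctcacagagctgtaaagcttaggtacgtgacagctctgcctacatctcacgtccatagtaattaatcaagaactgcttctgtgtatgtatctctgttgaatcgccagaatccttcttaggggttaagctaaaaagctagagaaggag
Cdk4: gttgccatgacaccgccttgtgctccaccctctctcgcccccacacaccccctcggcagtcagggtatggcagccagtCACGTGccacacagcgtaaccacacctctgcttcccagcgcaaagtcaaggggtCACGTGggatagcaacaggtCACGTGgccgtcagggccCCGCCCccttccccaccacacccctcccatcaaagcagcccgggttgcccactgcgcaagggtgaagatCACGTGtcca
Cdkn1b: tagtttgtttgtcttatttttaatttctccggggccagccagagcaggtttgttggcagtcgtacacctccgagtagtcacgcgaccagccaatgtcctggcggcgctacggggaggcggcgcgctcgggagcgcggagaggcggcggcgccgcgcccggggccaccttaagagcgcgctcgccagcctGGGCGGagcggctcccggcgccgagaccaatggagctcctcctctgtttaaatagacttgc

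The Cdk4 stretch holds 4 E-boxes and 1 GC box. Over all 32851 promoters of the table, 6.02% have at least 1 E-box within 250 bases before the start and 7 have 4 or more. In this window the Cdkn1b promoter has 1 GC box, and the downstream Cdkn2c promoter has neither motif. The upstream Cdkn2c promoter, which lies in annotated exon and is not printed, has 3 GC boxes. GC boxes occur in 32.7% of all promoters and in 6 of the 7 genes here, Cdk6 being the exception, while Cdk6 has 1 E-box. The E2F-like motif TTTNGCGC, searched on both strands, is in 1.13% of promoters and in 0 of these windows. These matches describe letters in a window and do not show binding.

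In the annotation of GRCm38, the D-type cyclin genes Ccnd2 and Ccnd3 lie on chromosomes 6 (127125162 to 127152193) and 17 (47505051 to 47599691). The E-type genes Ccne1 and Ccne2 lie on chromosomes 7 (38097984 to 38107534) and 4 (11191351 to 11204779). Cdk2 (128697939 to 128705031) shares chromosome 10 with Cdk4, Cdk6 lies on chromosome 5 (3341485 to 3531008), Cdkn1b on chromosome 6 (134920401 to 134925513) and Rb1 on chromosome 14 (73183673 to 73325822).

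Divided by the gene length in the authors' table (CPM per kilobase), cyclin D2 and CDK4 had the highest levels of the group and both inhibitors the lowest. The order depends on these lengths, which need not match the transcripts present in these cells. Over all 6 libraries Ccnd2 averaged 127 ± 39.7, Cdk4 107 ± 15.9 and Ccnd3 53.1 ± 3.86 CPM per kilobase (SD, n = 6). Ccne1 followed with 34.3 ± 4.79, Cdk2 with 31.0 ± 2.12, Cdk6 with 25.5 ± 9.24 and Ccne2 with 23.8 ± 3.75 CPM per kilobase. At the low end stood Rb1 with 19.5 ± 4.15, Cdkn1b with 14.1 ± 6.04 and Cdkn2c with 12.6 ± 2.60 CPM per kilobase. Cdk4 lay above Ccnd3, and Ccnd3 above Ccne1, in 6 of 6 libraries. All other neighbours in this order changed places in at least 1 library, among them Ccne1 and Cdk2 (4 of 6), Cdk2 and Cdk6 (3 of 6) and the inhibitors Cdkn1b and Cdkn2c (3 of 6). Cyclin D1 is absent from the order because Ccnd1 had 23, 5 and 24 counts in knockouts 1, 4 and 5 and 3, 2 and 1 counts in controls 1, 2 and 4, too few to be tested. Its highest counts are those of the libraries with the most B cell marker RNA, and the part of those cells in them was not tested.

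**Figure D1:**
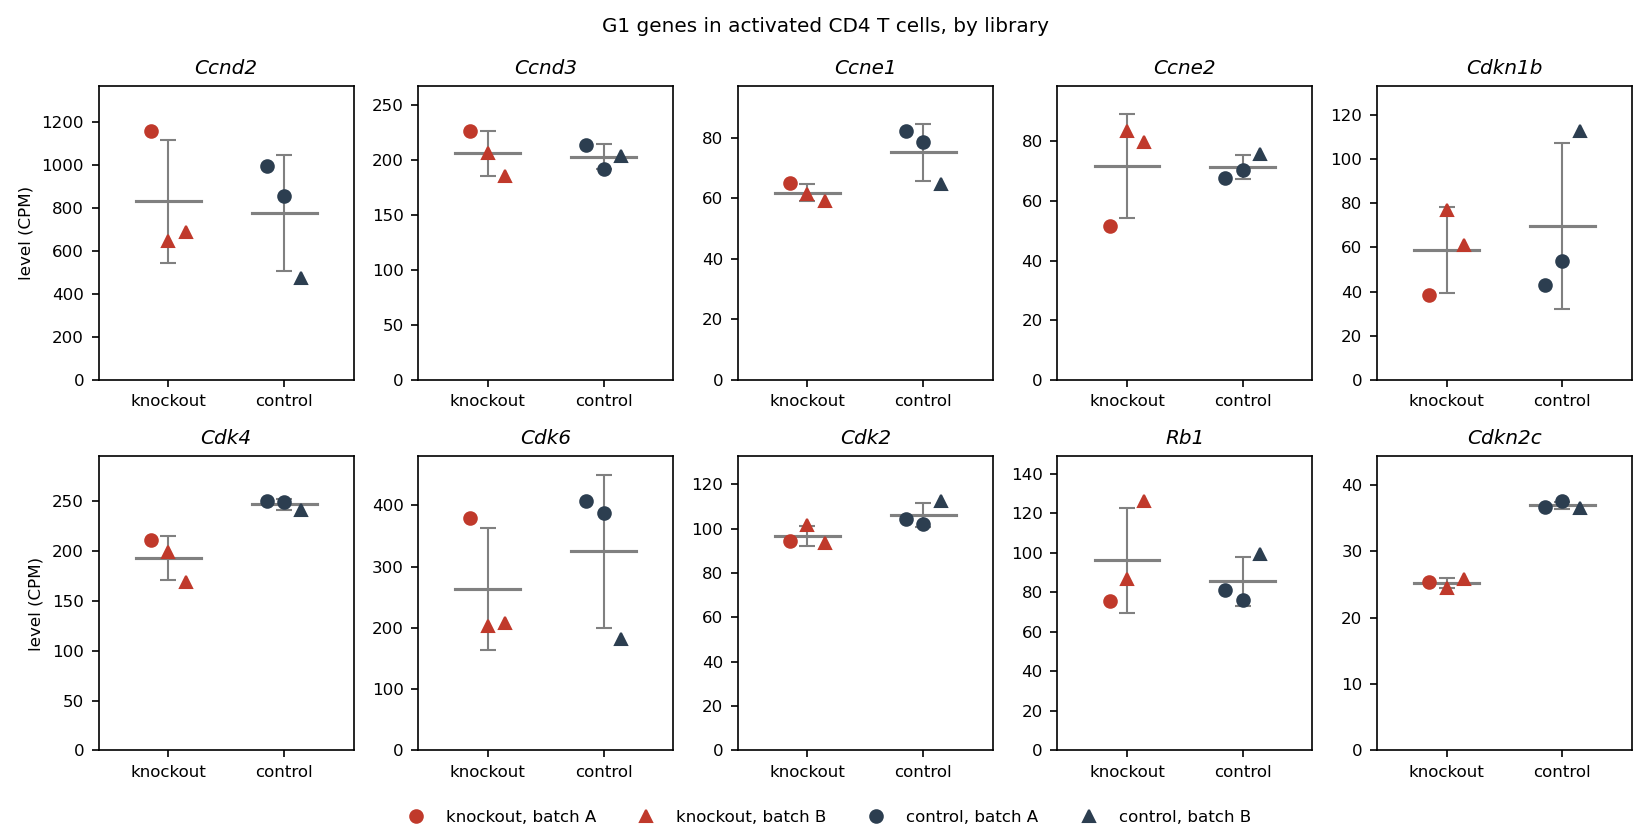
Level in CPM (vertical axis, from 0) of each G1 gene in the knockout libraries (red, left) and control libraries (dark, right) of activated CD4 T cells; circles are batch A, triangles batch B, grey lines the mean with 1 SD (n = 3 each). For Cdkn2c the knockouts lie at 24.5 to 25.9 CPM and the controls at 36.5 to 37.5 CPM, while Ccnd2 and Cdk6 part by batch.

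Cdkn2c, the INK4 inhibitor of CDK4 and CDK6, was the G1 gene with the tightest genotype difference, and it was lower in knockouts. It stood at 25.4, 24.5 and 25.9 CPM in knockouts 1, 4 and 5, against 36.7, 37.5 and 36.5 CPM in controls 1, 2 and 4. Behind these levels lie 802 to 845 counts per knockout library and 1117 to 1409 counts per control library. The genotypes did not overlap, and the means were 25.2 ± 0.709 CPM in knockouts and 36.9 ± 0.543 CPM in controls (SD, n = 3 each). The gene (ENSMUSG00000028551.14) lies on chromosome 4 at positions 109660876 to 109667189 of the minus strand of GRCm38, and its exons overlap no other annotated gene. On genotype alone the log2 fold change of Cdkn2c, knockout over control, was -0.55 (SE 0.13), and it did not pass the quasi-likelihood test of edgeR (adjusted p = 0.256).

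With batch as a term beside genotype, Cdkn2c fell, at a log2 fold change of -0.54 (SE 0.10, edgeR adjusted p = 0.0341). It was the single G1 gene to pass in that fit, 1 of 10, where 6.50% of all tested genes passed, 2.87% higher and 3.63% lower in knockouts. Batch A alone gave -0.55 and batch B alone -0.54. Without knockouts 1 and 5, the libraries with the most B cell marker RNA, the value was -0.58. That value rests on knockout 4 against control 4, because batch A then holds controls only. The fit has 1 residual degree of freedom and assumes that the lone knockout varies like the controls, so no call is read from it. Across fits with the batch term that each left out 1 library, the log2 fold change stayed between -0.56 and -0.53, but the call held only without knockout 4 or knockout 5. It was lost without knockout 1 (edgeR adjusted p = 0.115), control 1 (0.0797), control 2 (0.116) or control 4 (0.239). Without knockout 1 or control 4 a batch is left with 1 genotype, so the value comes from the other batch alone. With libraries scaled to ERCC spike-in counts the call was also lost (log2 fold change -1.01, edgeR adjusted p = 0.201). That scaling moves the median of all genes to -0.44. A replicate block ended the call too (-0.55, edgeR adjusted p = 0.0613), with 1 residual degree of freedom. The replicate-block value comes only from knockouts and controls 1 and 4, the replicates found in both genotypes. DESeq2 on genotype alone gave -0.55 with an adjusted p of 0.00181. The authors' deposited table runs control over knockout. In the authors' deposited table Cdkn2c had a log2 fold change of 0.51 with an adjusted p of 0.00466, by a method not named. Fewer cells with the transcript and less transcript per cell cannot be told apart in bulk RNA.

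Among the kinases, Cdk4 showed the other clear separation of the genotypes. It was at 211, 199 and 169 CPM in knockouts 1, 4 and 5, against 249.7, 249 and 241 CPM in controls 1, 2 and 4. Every knockout was below every control, with means of 193 ± 22.0 CPM in knockouts and 247 ± 5.06 CPM in controls (SD, n = 3 each). Cdk4 had a log2 fold change of -0.35 (SE 0.13) on genotype alone and -0.31 (SE 0.10) with the batch term, and neither passed (edgeR adjusted p = 0.369 and 0.0930). The value was -0.24 in batch A and -0.39 in batch B. Cdk4 lies on chromosome 10 (positions 127063534 to 127067920, plus strand), where its exons overlap those of Tspan31 on the other strand. Tspan31 had up to 1158 counts in a library, and the sources used here do not say whether the counting used strand. The same holds for Ccnd3 with Bysl (up to 1905 counts), Ccne2 with Ints8 (up to 3150), Cdk2 with Pmel (up to 65), and Ccnd2 and Cdk6 with antisense genes of at most 29 and 86 counts. Exons of Ccne1 and Cdkn1b overlap no other gene.

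Cdk2, the partner of the E-type cyclins, was at 94.2, 101.8 and 93.5 CPM in knockouts 1, 4 and 5 and at 104, 101.8 and 112 CPM in controls 1, 2 and 4. Knockout 4 lay only just below control 2, and the ranges overlapped once DESeq2 size factors replaced TMM. Its log2 fold change was -0.14 (SE 0.11) on genotype alone and -0.16 (SE 0.08) with the batch term (edgeR adjusted p = 0.730 and 0.238). With Cdkn2c and Cdk4 it makes 3 of 10 genes whose knockouts all lay below the controls, against 8.68% of all tested genes, and 0 of 10 lay above, against 9.35%.

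Cdk6, the second kinase that D-type cyclins use, followed the batch and not the genotype. It was at 379, 204 and 208 CPM in knockouts 1, 4 and 5, against 407, 387 and 181 CPM in controls 1, 2 and 4. The 3 batch A libraries were the high ones and the 3 batch B libraries the low ones, without overlap. The genotype log2 fold change was -0.30 (SE 0.36) alone and 0.06 (SE 0.10) with the batch term (edgeR adjusted p = 0.840 and 0.725).

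Of the D-type cyclins, Ccnd2 is the abundant one in these cells. It was at 1160.4, 645 and 688 CPM in knockouts 1, 4 and 5, against 998, 858 and 474 CPM in controls 1, 2 and 4. Inside each batch every knockout was above every control, while over both batches the genotypes overlapped. Its log2 fold change was 0.10 (SE 0.33) on genotype alone and 0.41 (SE 0.11) with the batch term (edgeR adjusted p = 0.960 and 0.0684), with 0.32 in batch A and 0.49 in batch B. Without knockout 4 the batch-term value of 0.41 passed (edgeR adjusted p = 0.04997). Under ERCC scaling with the batch term it was -0.048, where the median over all genes is -0.44. Ccnd3, the other D-type cyclin, was at 227, 207 and 185 CPM in knockouts 1, 4 and 5 and at 214, 192 and 204 CPM in controls 1, 2 and 4, with a log2 fold change of 0.02 (SE 0.13) alone and 0.05 (SE 0.10) with the batch term. Its genotypes overlapped, and neither fit called it (edgeR adjusted p = 0.978 and 0.776).

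Neither E-type cyclin passed. Ccne1 was at 65.0, 61.5 and 59.3 CPM in knockouts 1, 4 and 5, against 82.3, 78.8 and 64.7 CPM in controls 1, 2 and 4. The genotypes overlapped through control 4, which lay just below knockout 1. The log2 fold change was -0.28 (SE 0.14) alone and -0.20 (SE 0.09) with the batch term (edgeR adjusted p = 0.502 and 0.189). Ccne2 was at 51.8, 83.5 and 79.8 CPM in knockouts 1, 4 and 5 and at 67.8, 70.3 and 75.7 CPM in controls 1, 2 and 4. Knockout 1 was the lowest of all libraries and knockouts 4 and 5 the highest, and the log2 fold change was 0.01 (SE 0.19) alone and -0.15 (SE 0.13) with the batch term (edgeR adjusted p = 0.993 and 0.470).

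Cdkn1b, the inhibitor of cyclin E with CDK2, was at 38.3, 77.2 and 61.2 CPM in knockouts 1, 4 and 5, against 42.8, 53.6 and 113 CPM in controls 1, 2 and 4. Inside each batch every knockout lay below every control, by -0.33 in batch A and -0.71 in batch B on the log2 scale. On genotype alone the log2 fold change was -0.24 (SE 0.40) and with the batch term -0.52 (SE 0.14), and neither passed (edgeR adjusted p = 0.898 and 0.0672). Control 4 decides the sign of the first value, which was 0.28 without that library. Rb1, the target of these kinases, was at 75.8, 86.6 and 126 CPM in knockouts 1, 4 and 5 and at 80.9, 76.3 and 99.6 CPM in controls 1, 2 and 4. Its log2 fold change was 0.17 (SE 0.21) alone and 0.02 (SE 0.15) with the batch term (edgeR adjusted p = 0.852 and 0.939), and knockout 5 was its highest library. Exons of Rb1 overlap Rcbtb2 and Lpar6 on the other strand, which had up to 810 and 156 counts.

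**Figure D2:**
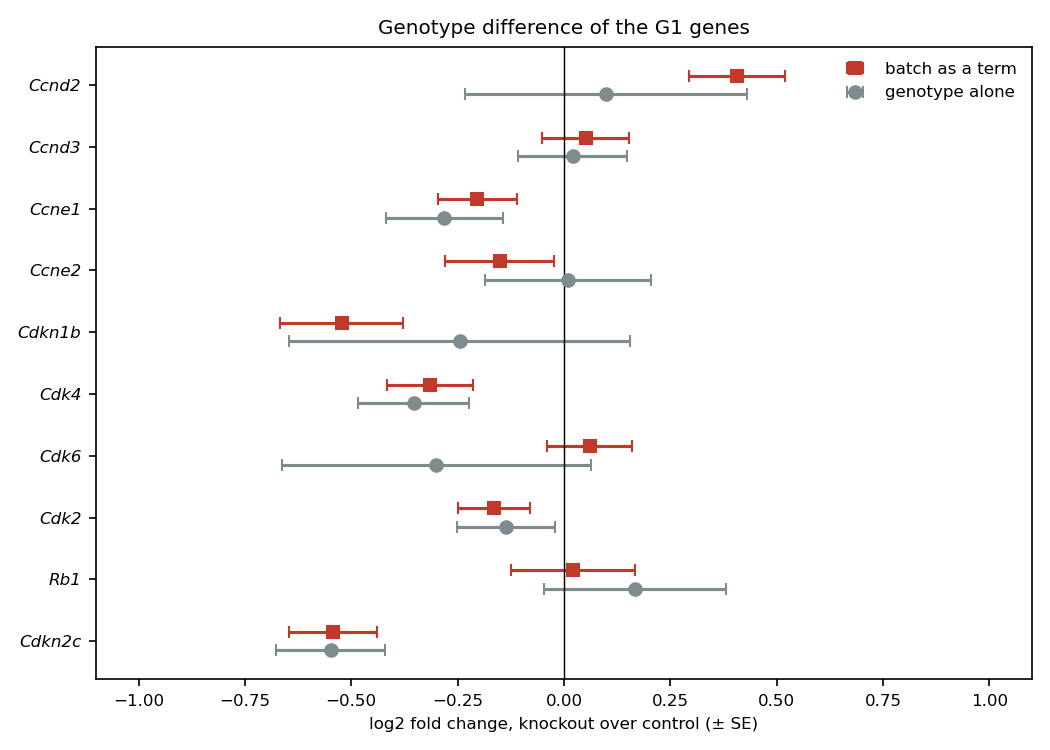
Log2 fold change, knockout over control, of each G1 gene (horizontal axis, bars are 1 SE) in the fit with batch as a term (red squares) and on genotype alone (grey circles), from 3 knockout and 3 control libraries. Cdkn2c has nearly the same value in both fits (-0.54 and -0.55), while Cdkn1b and Ccnd2 move away from 0 and gain precision once batch is a term.

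Read as a group, 0 of 10 genes passed the edgeR test on genotype alone, where 0 of 15685 genes passed (0%). At an unadjusted p under 0.05 there were 2 of 10, Cdk4 and Cdkn2c, against 11.3% of all genes. DESeq2 called 1 of 10, Cdkn2c, and 442 genes in all, and limma-voom called 0 and 0. With the batch term 1 of 10 passed, and 4 of 10 had an unadjusted p under 0.05 (Ccnd2, Cdk4, Cdkn1b and Cdkn2c), against 29.1% of all genes. Over the 10 genes the log2 fold changes had a median of -0.19 alone and -0.16 with the batch term, against 0.01 and 0.02 over all tested genes. With the batch term 6 of the 10 values were negative, against 7517 of all 15685 tested genes. The share that passed is near that of all genes, so these counts do not set the G1 genes apart.

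More G1 genes were called between the batches than between the genotypes, as was the case over all genes. In the fit that holds genotype as a term, 4 of 10 genes passed between batch B and batch A, against 32.2% of all tested genes. Of these 2 were higher and 2 lower in batch B, against 15.7% and 16.5% of all genes. Cdk6 averaged 198 ± 14.6 CPM in batch B and 391 ± 14.2 CPM in batch A (SD, n = 3 each), a log2 fold change of -1.0045 (SE 0.10, edgeR adjusted p = 0.00190). Ccnd2 averaged 603 ± 113 CPM in batch B and 1005 ± 152 CPM in batch A, a log2 fold change of -0.88 (SE 0.11, edgeR adjusted p = 0.00258). In the opposite direction Cdkn1b averaged 83.7 ± 26.4 CPM in batch B and 44.9 ± 7.87 CPM in batch A, a log2 fold change of 1.04 (SE 0.15, edgeR adjusted p = 0.00303). Ccne2 was higher too, at 79.7 ± 3.91 CPM in batch B and 63.3 ± 10.05 CPM in batch A (log2 fold change 0.39, SE 0.13, edgeR adjusted p = 0.0493).

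The calls of Cdk6 and Ccnd2 held in every fit that left out 1 library. That of Cdkn1b was lost without control 4 (log2 fold change 0.86, edgeR adjusted p = 0.0534). That of Ccne2 was lost without any library other than control 4, and without knockout 1 its value was 0.15. With ERCC scaling 0 of 10 passed, and Cdk6 came nearest (log2 fold change -1.33, edgeR adjusted p = 0.0526). Cdkn2c had a batch log2 fold change of -0.02 (SE 0.10, edgeR adjusted p = 0.902), Cdk4 one of -0.13, Cdk2 one of 0.09 and Ccnd3 one of -0.10. Rb1 had 0.41 and Ccne1 -0.21 (edgeR adjusted p = 0.0637 and 0.117). In CPM the batches did not overlap for 6 of 10 genes, against 38.5% of all tested genes.

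**Figure D3:**
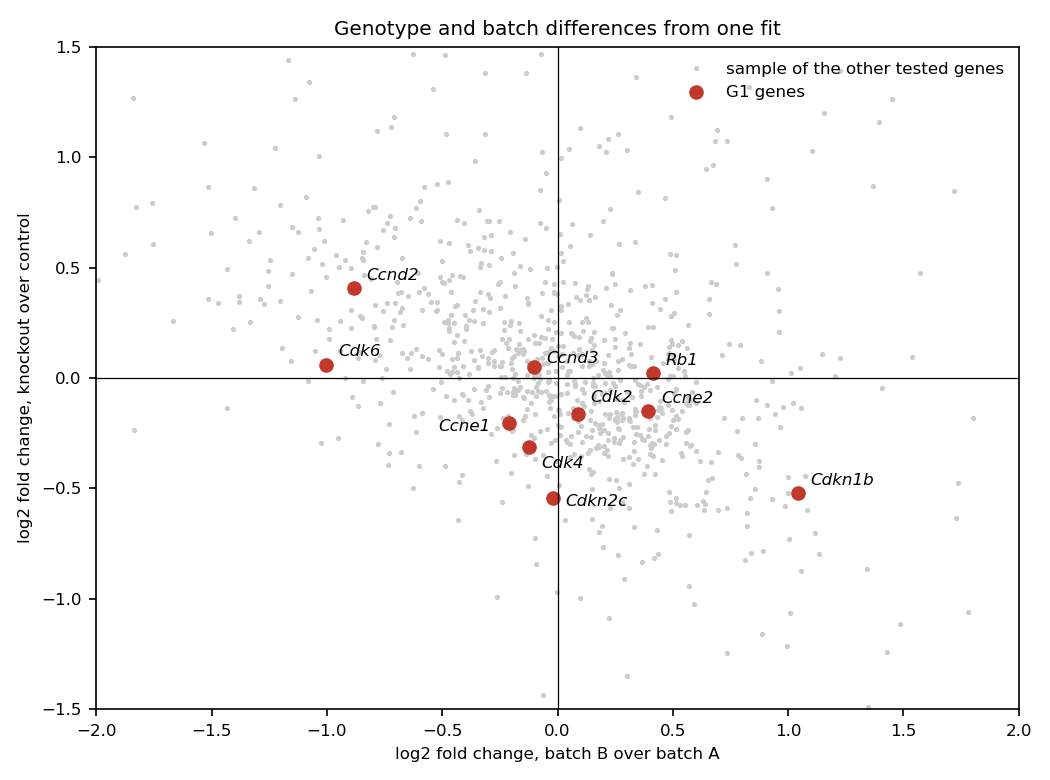
Log2 fold change, batch B over batch A (horizontal axis) and knockout over control (vertical axis), from the fit that holds both terms, for the G1 genes (red) and a random sample of other tested genes (grey; genes beyond the axes are not drawn). Cdkn2c lies at -0.54 for genotype and -0.02 for batch, and Cdk6 at 0.06 and -1.0045; both values of a gene come from the same 6 libraries.

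Whether the genotype difference itself differs between the batches was tested as an interaction. The interaction of genotype and batch passed for 0 of 10 genes and for 0 of 15685 in edgeR (0%), with 996 genes at an unadjusted p under 0.05 (6.35%). Among the 10 this was 1 gene, Ccne2, with an interaction of 0.53 on the log2 scale (SE 0.16, unadjusted p = 0.0166, edgeR adjusted p = 0.749). Cdkn2c had an interaction of 0.01 (SE 0.20). In batch A there is 1 knockout and in batch B 1 control, so precision within a batch is low. For 2 of 10 genes, Ccne2 and Cdk6, every knockout lay on one side of the controls in batch A and on the other in batch B, against 16.0% of all genes.

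Ratios between members of one library do not depend on how libraries are scaled against each other. The ratio of Ccnd2 to Ccnd3, per kilobase, was 3.12, 1.90 and 2.26 in knockouts 1, 4 and 5, against 2.84, 2.72 and 1.42 in controls 1, 2 and 4. It averaged 1.86 ± 0.424 in batch B and 2.89 ± 0.204 in batch A (SD, n = 3 each), without overlap. The ratio of Cdk6 to Cdk4 was 0.320, 0.182 and 0.220 in knockouts 1, 4 and 5, against 0.290, 0.276 and 0.134 in controls 1, 2 and 4. In both ratios each knockout was above the controls of its own batch, and the genotypes overlapped over both batches.

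The balance of the E-type cyclins tilted to Ccne2 in batch B, where the ratio of Ccne2 to Ccne1 was 0.859 ± 0.0697, against 0.557 ± 0.0327 in batch A. The ratio of Cdkn1b to Cdk2 was 0.292, 0.544 and 0.469 in knockouts 1, 4 and 5. In controls 1, 2 and 4 it was 0.295, 0.378 and 0.721. Each knockout was below the controls of its batch, though knockout 1 lay only just below control 1. Because Cdkn2c and its target Cdk4 were both lower in knockouts, their ratio was 0.110 ± 0.0153 in knockouts and 0.124 ± 0.00203 in controls, with knockout 5 (0.127) above all controls.

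**Figure D4:**
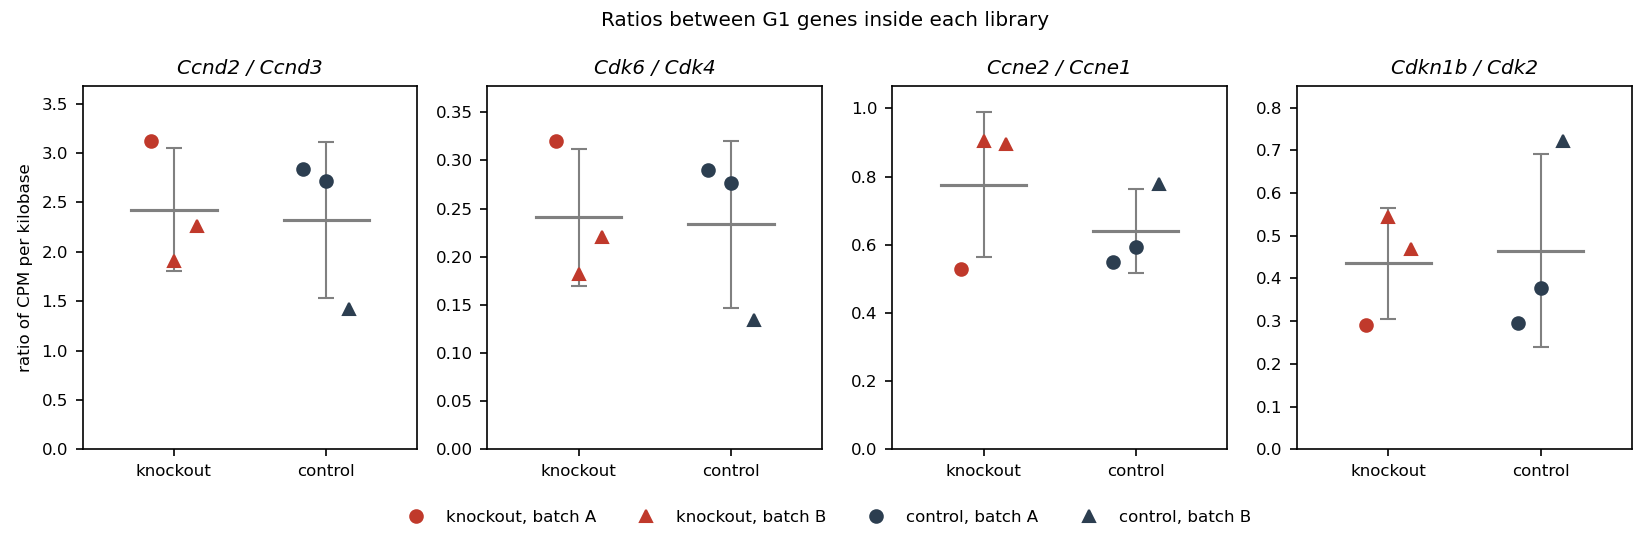
Ratio of CPM per kilobase (vertical axis, from 0) between pairs of G1 genes inside each library, knockouts (red) left of controls (dark), with batch A as circles and batch B as triangles; grey lines are the mean with 1 SD (n = 3 each). The ratio of Cdk6 to Cdk4 lies between 0.134 and 0.220 in batch B and between 0.276 and 0.320 in batch A.

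The authors' deposited table also compares unstimulated with activated cells, as unstimulated over activated, so that a negative value means more transcript after activation. The activated libraries are shared with the comparisons above, the unstimulated libraries were not analysed here, and the direction was read from the column names. There, 8 of 10 genes passed an adjusted p of 0.05 in knockouts and 8 of 10 in controls, where 61.1% and 70.5% of genes passed. In each genotype 7 were negative and 1, Cdkn1b, positive, against 25.8% of genes negative and 35.4% positive in knockouts, and 27.7% and 42.8% in controls. In the authors' deposited table the E-type cyclins had the largest values, with -4.21 in knockouts and -3.95 in controls for Ccne2 and -3.26 and -3.41 for Ccne1. Cdk6 had -2.27 in knockouts and -2.64 in controls, and Cdk4 had -1.92 and -2.31, in the authors' deposited table. In the same authors' deposited table Cdk2 had -1.14 and -1.34, and Ccnd2 had -1.21 and -1.06.

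Cdkn2c, although an inhibitor, was higher after activation in the authors' deposited table, with -1.59 in knockouts and -2.23 in controls. Cdkn1b was the inhibitor that fell with activation in the authors' deposited table, with 2.00 in knockouts and 1.68 in controls. Ccnd3 (0.02 and -0.09) and Rb1 (-0.21 and 0.04) did not pass there in either genotype. Whether activation changed a gene by a different amount in knockouts was not tested. In unstimulated cells 0 of 10 genes passed between the genotypes in the authors' deposited table, where 0.0151% of genes did (0.00503% negative and 0.0101% positive). Prmt5, in the same authors' deposited table, had 0.74 for unstimulated control over knockout (adjusted p = 0.00081). Between activated genotypes 1 of 10 genes, Cdkn2c, passed in the authors' deposited table, where 6.10% of genes did (3.15% negative and 2.95% positive). Among the genes called between the batches, Cdk6 and Ccnd2 (lower in batch B) and Ccne2 (higher in batch B) have more transcript after activation. Cdkn1b (higher in batch B) has less. Cdk4, Cdk2, Cdkn2c and Ccne1 also have more after activation and were not called between the batches. A link between batch and activation was not tested.

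**Figure D5:**
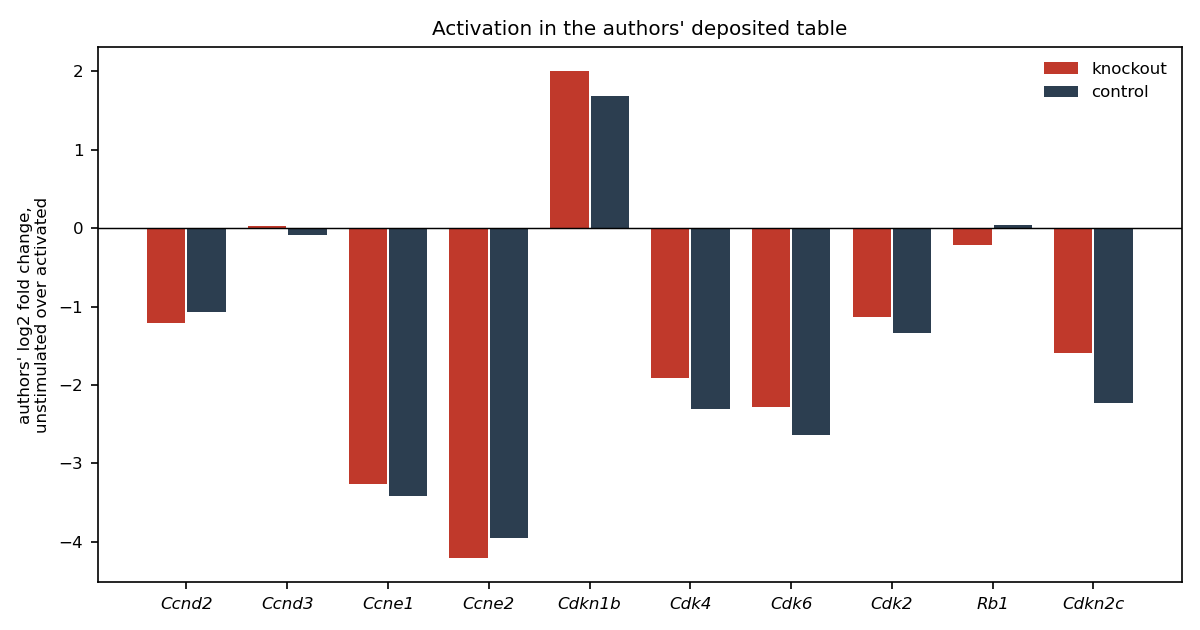
Log2 fold change of unstimulated over activated cells (vertical axis) for each G1 gene in the authors' deposited table, knockout (red) left of control (dark); the authors give no error for these values. Bars below 0 mean more transcript after activation: Ccne2 reaches -4.21 in knockouts and -3.95 in controls, and Cdkn1b at 2.00 and 1.68 is the one gene with a positive value that passed.

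The rest of the G1 network was taken from lists of genes by role. Of 15 other G1 cyclins, kinases, inhibitors and their ligase subunits, 12 could be tested, and Ccnd1, Cdkn2a and Cdkn2b had too few counts. On genotype alone edgeR called 0 genes of any list. With the batch term 2 of these 12 genes fell, against 3.63% of all tested genes. Cdkn2d, an INK4 inhibitor related to Cdkn2c, had a log2 fold change of -0.75 (edgeR adjusted p = 0.0298), with 21.6, 58.1 and 55.0 CPM in knockouts 1, 4 and 5 against 31.9, 43.4 and 91.5 CPM in controls 1, 2 and 4. Ccnh, the cyclin of the CDK-activating kinase, had -0.56 (edgeR adjusted p = 0.0235), with every knockout below every control. Of the fits with the batch term that each left out 1 library, 3 of 6 called Cdkn2d and 2 of 6 called Ccnh. Neither passed under ERCC scaling with the batch term (log2 fold change -1.23 and -1.03, edgeR adjusted p = 0.0872 and 0.183). Cdkn1c, a relative of Cdkn1b, had -1.08 at under 1.6 CPM and did not pass (edgeR adjusted p = 0.0848). The list median was -0.02 with the batch term.

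Factors that act with the retinoblastoma protein showed no call. Of 17 pocket proteins, E2F and DP factors and MuvB subunits, 0 passed in either fit, and the median was 0.00 with the batch term. The smallest p-values belonged to the repressor E2f6 (log2 fold change -0.37), the MuvB subunit gene Lin37 (0.34) and the activator E2f2 (0.23), with edgeR adjusted p-values of 0.0808 for E2f6 and 0.148 for the other two. Of 24 S phase genes that E2F factors drive, 0 passed in either fit, against the same 0% and 6.50%. Their median was -0.18 with the batch term. In that fit 18 of the 24 were negative, against 7517 of all 15685 tested genes. Mcm7 of the replicative helicase had -0.48 and Cdc45, which activates that helicase, had -0.33 (edgeR adjusted p = 0.0659 and 0.0662). Of 10 later cyclins and regulators of CDK1, 0 passed in either fit, against the same shares of all tested genes. With the batch term 8 were negative, against the same 7517 of 15685, and the median was -0.19. Ccnb2 had -0.45, Cdk1 -0.35 and Ccnb1 -0.29 (edgeR adjusted p = 0.0530, 0.105 and 0.138). Of 12 upstream regulators of G1 genes, 2 rose with the batch term, against 2.87% of all tested genes. Notch1, a receptor known to induce cyclin D genes, rose by 0.73 on the log2 scale (edgeR adjusted p = 0.0312). Bach2, a transcriptional repressor that restrains effector programmes in T cells, rose by 0.67 (edgeR adjusted p = 0.0442). On genotype alone they had 0.38 and 0.33 (edgeR adjusted p = 0.771 and 0.857), and their genotypes overlapped. Between batch B and batch A both had larger values, -0.96 and -1.13 (edgeR adjusted p = 0.00295 and 0.00271). Leaving out 1 library kept the genotype calls with the batch term in 3 of 6 fits for Notch1 and 2 of 6 for Bach2. ERCC scaling with the batch term ended both calls, with log2 fold changes of 0.27 for Notch1 and 0.21 for Bach2 (edgeR adjusted p = 0.730 and 0.773). Stat5a, which carries interleukin signals, had -0.33 and did not pass (edgeR adjusted p = 0.0725). That list had a median of 0.24 with the batch term and 0.07 on genotype alone, against 0.02 and 0.01 over all tested genes. Between batch B and batch A its median was -0.58, against 0.02 over all tested genes.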

How the data were processed

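Raw read counts per gene for 6 libraries were taken from the authors' deposited table, whose column names mark them as raw and end in the sample titles. STAR, featureCounts, DESeq2 and DESeq, with the build GRCm38.p3, are named without role or order per the submitters' processing notes. Libraries were stranded and depleted of ribosomal RNA, per the labels' protocols. The series calls the replicates biological. The authors' deposited log2 fold changes and adjusted p-values carry no named method; the signs of the activated comparison, control over knockout, were checked against the counts. Another 18 columns hold values of single libraries and are not analysed here.

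The table holds 54532 genes and 92 ERCC spike-ins, which were kept out of library sizes. Tests used edgeR 4.0.16 in R 4.3.3: filterByExpr (minimum count 10, minimum total 15; 15685 genes kept), TMM, glmQLFit and glmQLFTest, two-sided, Benjamini-Hochberg adjustment over all tested genes, threshold 0.05. The SE was taken as the size of the log2 fold change over the root of the F statistic. DESeq2 1.42.0 and limma 3.58.1 (voom) were alternatives. The procedure was also run on simulated counts with the same dispersion for every gene and no difference between batches. That run does not test how the fits handle a batch difference. Coordinates are from GENCODE M21, which holds 53315 of the gene identifiers. The genes, the lists and the batch term were chosen with earlier results of these data known. From each list the 3 genes with the smallest p in the batch-term fit were named, plus all called genes where 5 or fewer were called; all 10 G1 genes are described, and 1 gene that the rule names is not reported here. The ratios between genes, and leaving out knockouts 1 and 5 together, were chosen after seeing the data.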

Additional observations from a re-analysis of the deposited data

Results flagged for a closer look

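For 2 of the 10 G1 genes every knockout lay on one side of the controls inside batch A and on the other side inside batch B, a pattern that 16.0% of all tested genes showed. Ccne2 had a log2 fold change, knockout over control, of -0.42 in batch A and 0.11 in batch B. The test of that difference gave an edgeR adjusted p of 0.749. Cdk6 had -0.065 in batch A and 0.19 in batch B, with an edgeR adjusted p of 0.808 for the difference. In neither gene did the difference between batches pass.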

How the results depend on the processing

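The number of genes called on genotype alone, 0 in edgeR, was also 0 with DESeq2 size factors and in limma-voom. It was 1020 with the batch term, 768 with the replicate block, 273 with ERCC scaling, 393 with ERCC scaling and the batch term, 720 without a filter and 442 in DESeq2. Without knockouts 1 and 5 (with the batch term) it was 1511, and 1 for the G1 genes, but that fit has 1 knockout library and 1 residual degree of freedom, so these counts are not comparable with the others. Leaving out 1 library gave 0 genes on genotype alone. With the batch term it gave 0 to 2056 genes and 0 to 2 G1 genes. The counts were 0 genes without knockout 1 or control 4, 3 without control 2, 149 without control 1, 993 without knockout 5 and 2056 without knockout 4. Without knockout 1 or control 4 a batch is left with 1 genotype, so the genotype value comes from the other batch alone. The G1 genes called were 1 with the batch term and in DESeq2, and 0 under the other settings that left no library out. The replicate block is among these, but knockout 5 and control 2 have no partner in it. Its genotype value comes only from replicates 1 and 4, with 1 residual degree of freedom, so its counts are not comparable with the others. Replicate numbers 1 and 4 occur in both genotypes, and the deviations of same-numbered libraries correlated at 0.67 and 0.48 across genes, but these pairs also share a batch and nothing in the labels ties them together. Between batches, ERCC scaling left 1148 genes and 0 G1 genes, and leaving out 1 library gave 1284 to 5202 genes and 3 to 4 G1 genes. The interaction called 250 genes without a filter.

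Signs of small values turned. For Ccne2 the genotype value became -0.15 with the batch term, -0.12 with the replicate block, -0.015 without a filter and -0.021 in limma-voom. For Cdk6 it became 0.060 with the batch term, 0.034 with the replicate block and 0.17 without knockouts 1 and 5, for Rb1 -0.15 with the replicate block, and for Ccnd3 -0.0067 without a filter. ERCC scaling moved the median of all genes to -0.59 on genotype alone and to -0.44 with the batch term. The values then were -0.57 and -0.048 for Ccnd2, -0.57 and -0.40 for Ccnd3, -0.58 and -0.62 for Ccne2, -0.42 and -0.45 for Rb1, -0.16 and -0.12 for Lin37, and -0.47 and -0.23 for E2f2. On genotype alone they were -0.29 for Notch1 and -0.34 for Bach2. The batch value of Cdk2 became -0.23 with ERCC scaling.

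Leaving out 1 library moved the genotype values differently in each fit. On genotype alone they ran from -0.23 to 0.32 for Ccnd2, -0.52 to 0.28 for Cdkn1b and -0.605 to 0.25 for Cdkn2d. Ccnb2 ran from -0.46 to 0.033 and Bach2 from -0.20 to 0.62. With the batch term these genes kept their sign, at 0.31 to 0.47 for Ccnd2, -0.73 to -0.34 for Cdkn1b and -0.84 to -0.65 for Cdkn2d. Ccnb2 then lay at -0.53 to -0.38 and Bach2 at 0.57 to 0.75. Cdk6 ran from -0.67 to -0.11 alone and from -0.074 to 0.16 with the batch term. Signs turned in both fits for Ccnd3, from -0.067 to 0.089 alone and from -0.079 to 0.15 with the batch term. The same held for Ccne2 (-0.12 to 0.18 and -0.42 to 0.087) and Rb1 (-0.078 to 0.30 and -0.12 to 0.11). The batch value of Ccnd3 ran from -0.21 to 0.018. The cause was not tested. With 3 libraries a genotype, small differences may not be detectable.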
